A study of Mus musculus with 24 samples.

Results

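Src, Yes1, Fyn, Lyn, Fgr and Lck, which encode Src family tyrosine kinases, and Csk, which encodes the kinase that holds them inactive, were followed in RNA from mouse adipose tissue. The 7 genes were chosen by symbol, 7 of 54232 genes in the deposited table, and each symbol matched 1 Ensembl gene of the GRCm38 annotation. The study asked how experimental renal failure alters adipose gene expression and how the peptide NaKtide, made in adipocytes, alters that response. RNA of 24 mice was sequenced, with 6 male C57BL6 mice in each of 4 groups, aged 10 weeks per the series description. Control mice had a sham operation and a lentivirus that carried GFP. NaKtide mice had the sham operation and the NaKtide virus, PNx mice had a 5/6 nephrectomy and the GFP virus, and PNx+NaKtide mice had the nephrectomy and the NaKtide virus. All 4 groups thus received an intraperitoneal lentivirus, and an adiponectin promoter drove its insert, so that expression of the insert depends on adipocytes. The labels give adipose tissue, and the study's methods name visceral fat.

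Src family kinases are membrane-anchored tyrosine kinases that relay signals from receptors, integrins and immune receptors. Phosphorylation of a tyrosine in the C-terminal tail by Csk folds them shut, and removal of that phosphate by phosphatases such as Ptpra opens them. Src, Yes1 and Fyn are made in most tissues, whereas Lck belongs mainly to T cells, and Fgr and Lyn to myeloid cells, with Lyn also in B cells. NaKtide is a peptide that was designed to bind and inhibit Src. The files hold RNA levels only, and neither kinase activity nor phosphorylation was measured in them.

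In the GRCm38 build, Src (ENSMUSG00000027646) spans chr2:157418444-157471862, Fyn (ENSMUSG00000019843) chr10:39368855-39565381, Yes1 (ENSMUSG00000014932) chr5:32611171-32687057, Lyn (ENSMUSG00000042228) chr4:3678115-3813122 and Fgr (ENSMUSG00000028874) chr4:132974095-133001910, all on the forward strand. Lck (ENSMUSG00000000409) spans chr4:129548344-129573641 and Csk (ENSMUSG00000032312) chr9:57626646-57653631, on the reverse strand. Library preparation kept strand, but the strand setting of the counting step was not given in the sources used here. A gene overlapped by a gene of the opposite strand may therefore hold reads of its neighbour, and it was not tested which strand the counts of the other genes come from. Exons of Src, Fyn, Fgr, Lck and Csk overlap no exon of the opposite strand. Yes1 shares 635 of its 7508 exon bases with Gm10461, an unspliced transcript with 230 counts over all libraries against 143 for Yes1. Lyn shares 248 of its 4073 exon bases with the long noncoding RNA Gm26857, which had 257 counts against 93 for Lyn. The other 7 opposite-strand genes lie in introns or beyond the exons of Yes1, Fyn and Lyn and share no exon base with them. Gm16365 had 215 counts and Gm16364 153 at the end of Fyn, 9430025C20Rik had 226 inside Lyn, and Gm15614 of Yes1 had 26. Gm22781, Gm11805 and Gm6963 had 11, 10 and 1.

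**Figure D1:**
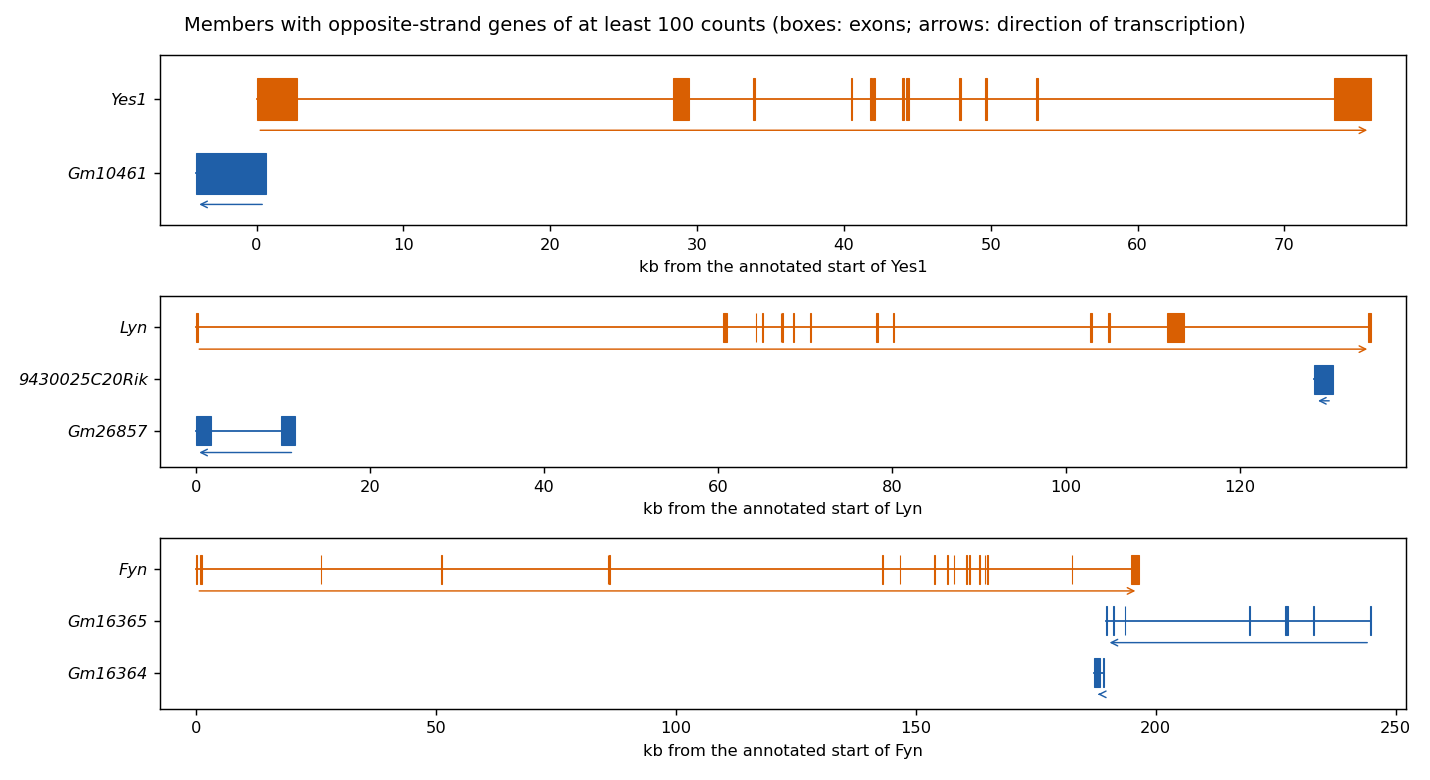
Exons (boxes) of Yes1, Lyn and Fyn in orange and of their opposite-strand genes with at least 100 counts in blue, in kb from the annotated start of the kinase gene; arrows give the direction of transcription. Gm10461 covers the start of the first exon of Yes1, Gm26857 covers nearly all of the first exon of Lyn, and the genes opposite to Fyn and 9430025C20Rik touch no exon of the kinase.

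The region before Yes1 is shown because all 250 bases of it lie inside the single exon of Gm10461. The window chr5:32610921-32611170 on the forward strand (RefSeq, GRCm38.p6) ends at the base before the annotated start of Yes1, and capitals mark the CpG dinucleotides.
Yes1 upstream window: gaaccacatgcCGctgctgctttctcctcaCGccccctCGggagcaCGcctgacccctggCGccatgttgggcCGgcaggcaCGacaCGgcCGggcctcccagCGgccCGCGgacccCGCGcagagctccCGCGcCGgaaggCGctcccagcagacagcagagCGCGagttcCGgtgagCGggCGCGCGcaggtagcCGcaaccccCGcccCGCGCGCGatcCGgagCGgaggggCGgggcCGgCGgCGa
It holds 37 CpG dinucleotides at 77.2% G and C, against a median of 6 over 32851 windows of that length before mouse genes, of which 2.20% hold as many. RefSeq windows matched 6 of the 7 genes.

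Fyn was the most abundant of the 7 genes per length. On the scale of the deposited FPKM (fragments per kilobase of gene, scaled to library depth), the median over 24 libraries was 8.91 for Fyn, 1.39 for Src, 1.05 for Csk, 0.566 for Lck, 0.287 for Yes1, 0.279 for Lyn and 0 for Fgr. Fyn exceeded Src in 23 of 24 libraries, whereas Yes1 exceeded Lyn in 12. The ranges of every neighbouring pair in that order overlapped. By the mean over libraries in place of the median, Csk at 1.46 stood before Src at 1.40, and Lyn at 0.455 before Yes1 at 0.384. Counts per gene were low. Over all libraries Fyn had 1441 counts, Src 261, Csk 245, Yes1 143, Lyn 93, Lck 92 and Fgr 13. Fyn, Src and Csk were counted in all 24 libraries, Lck in 23, Yes1 in 21, Lyn in 20 and Fgr in 9. Fgr, a kinase of neutrophils and macrophages, had 4 counts in Control, 3 in NaKtide, 4 in PNx and 2 in PNx+NaKtide, and no fold change is given for it. Of the 5 neutrophil markers, 3 (S100a8, Cxcr2 and Retnlg) had no count in any library, and the other two had 15 together.

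The libraries held 679250 to 2979505 counts. The 9103 genes with an exon overlap on the opposite strand took 70.2 to 86.5% of them. Markers of the labelled tissue were present, with counts for all 10 adipocyte genes, but the summed level of 14 epididymis genes exceeded that of the adipocyte list in 21 of 24 libraries. There were 5 libraries that stood apart. PNx replicates 1, 2 and 3 summed to 1081, 1028 and 1280 CPM (counts scaled by library size with TMM factors) over 12 germ cell genes of the testis. PNx+NaKtide replicates 4 and 3 came next with 929 and 852, so this sum alone did not set those PNx libraries apart. On the axis of largest spread between libraries (first principal component) PNx replicates 1, 2 and 3 lay at 234, 200 and 191, against at most 77.8 elsewhere. The study's text describes 3 PNx animals that separated from the others by expression and had pronounced phenotypes, but does not give their numbers. PNx replicate 6 and NaKtide replicate 6 summed to 4419 and 2817 CPM over the adipocyte list, against at most 728 elsewhere, with 137 and 33.6 over the epididymis list. NaKtide replicate 6 also had 4673 CPM over 6 skeletal muscle genes, against at most 31.2 elsewhere. The macrophage and kidney lists rested on single genes with an opposite-strand neighbour, Csf1r with 89.4% and Nphs1 with 95.4% of their counts. In bulk tissue a change in the number of cells of a type and a change in RNA per cell cannot be told apart. Adipoq, whose promoter drove the virus, had medians of 33.8 CPM in Control (6.42 to 56.2), 25.4 in NaKtide (13.3 to 166), 91.8 in PNx (5.5 to 345) and 33.1 in PNx+NaKtide (2.50 to 49.0). The inserts themselves were not analysed here.

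**Figure D2:**
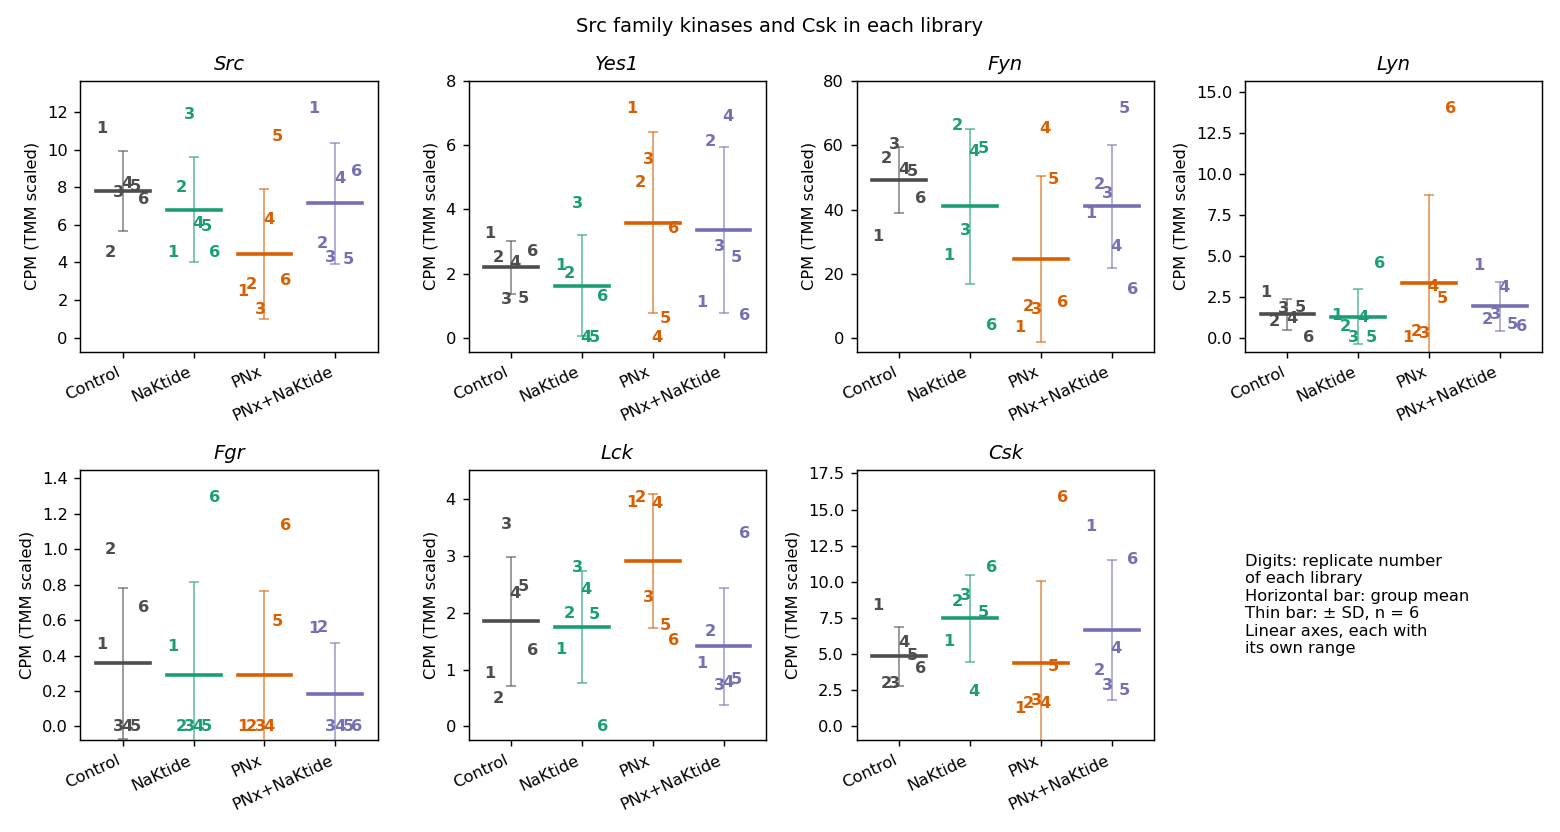
TMM-scaled CPM of each gene in every library on linear axes that differ between panels, with digits for the replicate number, a wide bar for the group mean and a thin bar for the SD (n = 6), which runs off the lower edge where it passes below 0. PNx replicates 1, 2, 3 and 6 form the low group of Fyn and Src, and PNx replicate 6 stands far above the other libraries of its group for Lyn and Csk.

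The first comparison asked whether renal failure alters these genes in mice with the GFP virus. Src and Fyn were lower in most PNx libraries than in Control, Yes1 and Lck were higher in most, and none of the differences passed the test. Between PNx and Control, 0 of 7 genes were called at a Benjamini-Hochberg (BH) adjusted p under 0.1 (edgeR, all genes in 1 fit), where 0.0766% of the 26116 genes tested were called. At an unadjusted p under 0.05 the count was also 0 of 7, where 25.4% of all genes passed, 18.5% of all genes being higher and 6.88% lower. Over all genes tested, the log2 fold changes had a median of 0.36 in this fit and 0.76 with DESeq2 size factors, so each value below also depends on the scaling.

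Src, the intended target of NaKtide, had 4.50, 7.86 and 11.1 CPM as lowest, median and highest value in Control and 1.51, 2.92 and 10.7 in PNx. Of the 6 PNx libraries, 4 lay below the lowest Control library, and replicates 4 and 5, at 6.28 and 10.7, lay inside the Control range. The means were 7.81 ± 2.12 and 4.47 ± 3.45 CPM (SD, n = 6 each), with a log2 fold change of -0.85 ± 0.45 (SE) and an adjusted p of 0.226. The 4 low libraries, PNx replicates 1, 2, 3 and 6, also had low sums over the epididymis list, 29.7, 296, 740 and 137 CPM against 921 to 2587 in Control, and replicates 4 and 5, at 1584 and 2467, lay inside that range. The part of that tissue in the level of Src was not tested. Relative to the median of all genes the difference was -1.21, and -1.30 with DESeq2 size factors. Without PNx replicate 5 the log2 fold change was -1.33 with an adjusted p of 0.0700, in a fit that called 23.2% of all genes. Without PNx replicates 1, 2 and 3 it was -0.28 (adjusted p = 0.846), in a fit that called 0% of all genes.

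Fyn, which acts in T cell receptor and integrin signalling, spread over a wider range. Its lowest, median and highest values were 31.6, 52.2 and 60.4 CPM in Control and 3.20, 10.3 and 65.2 in PNx. PNx replicates 1, 2, 3 and 6 had 3.20, 9.69, 8.83 and 10.9 CPM, all below the Control range, whereas replicate 4 stood above it and replicate 5, at 49.3, within it. The log2 fold change was -1.03 ± 0.59 with an adjusted p of 0.251, or -1.39 relative to all genes. Without PNx replicate 4 the log2 fold change was -1.60 with an adjusted p of 0.0604, and that fit called 33.2% of all genes. Without PNx replicates 1, 2 and 3 it was -0.28 (adjusted p = 0.877), in a fit that called 0% of all genes. PNx replicates 1, 2, 3 and 6 also had low sums over 8 T cell markers. These sums were 11.6, 18.5, 13.3 and 7.54 CPM, against 42.2 to 66.5 in Control, and Cd2 held 77.0% of the counts of that list. PNx replicate 6 had counts for all 8 of these genes. PNx replicates 1, 2 and 3 had counts for 5, 4 and 6 of them, against 3 to 6 in Control. Cd3d, a T cell receptor subunit of the same list, was at 2.32 ± 1.01 in PNx against Control (adjusted p = 0.165), opposite in direction to the sum. The macrophage list, mostly Csf1r, summed to 169, 277, 185 and 332 CPM in those libraries, against 319 to 446 in Control. The kidney list, mostly Nphs1, was low there too, at 787, 1571, 1003 and 2037 CPM, against 2925 to 4442 in Control. What part these cell types or tissues have in the level of Fyn was not tested.

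Csk, the kinase that phosphorylates the tail of the others, had 2.96, 4.48 and 8.36 CPM in Control and 1.23, 1.69 and 15.9 in PNx. There were 4 PNx libraries below every Control library, and replicate 6 lay far above all of them. The means of 4.85 ± 2.05 and 4.37 ± 5.73 CPM (SD, n = 6 each) gave a log2 fold change of -0.15 ± 0.59 with an adjusted p of 0.885. Without PNx replicate 6 the value was -1.25 (adjusted p = 0.116), and without replicate 6 of both PNx and NaKtide it was -1.26 with an adjusted p of 0.0996, in a fit that called 21.8% of all genes. That setting was added after the data were seen. With DESeq2 size factors and all libraries it was 0.08.

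Yes1, a close relative of Src made in most tissues, ran from 1.18 to 3.25 CPM in Control with a median of 2.42, and from 0 to 7.15 in PNx with a median of 4.12. In PNx, 4 libraries lay above the Control range and 2 below it. Replicates 1, 2 and 3, the libraries with the highest germ cell sums, had 7.15, 4.85 and 5.55 CPM. In contrast, replicates 4 and 5 had 0 and 0.594, which are 0 and 1 counts. The log2 fold change was 0.75 ± 0.67 (adjusted p = 0.463), and without replicates 1, 2 and 3 it was -0.63 (adjusted p = 0.788). Gm10461, which overlaps the start of Yes1, had medians of 7.75 CPM in Control and 5.25 in PNx.

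Lck, which starts T cell receptor signalling, had 0.50, 1.84 and 3.55 CPM in Control and 1.51, 3.10 and 4.04 in PNx. Here 3 of 6 PNx libraries exceeded every Control library, and none lay below the Control range. The log2 fold change was 0.65 ± 0.57 with an adjusted p of 0.455. Lck thus did not follow Fyn, since PNx replicates 1 and 2 had 3.94 and 4.04 CPM of Lck and the low values of Fyn given above.

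Lyn, a kinase of B cells and myeloid cells, had 0, 1.47 and 2.79 CPM in Control and 0, 1.39 and 14.0 in PNx. A single library carried the difference between the means of 1.43 ± 0.94 and 3.36 ± 5.35 CPM, because PNx replicate 6 held 37 of the 93 counts of Lyn. The log2 fold change was 1.15 ± 0.90 (adjusted p = 0.393) with that library and -0.53 (adjusted p = 0.666) without it. Replicate 6 of PNx also had 401 CPM over 6 endothelial markers, against at most 68.5 elsewhere, and 83.7 over 6 B cell markers, against at most 11.7 in Control. NaKtide replicate 6 had a higher B cell sum, 137 CPM, with 4.53 CPM of Lyn. Gm26857 had 40 counts in that library and 25 in NaKtide replicate 6, its highest counts. Which strand these reads come from was not tested. The part of these cell types in the level of Lyn was not tested.

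**Figure D3:**
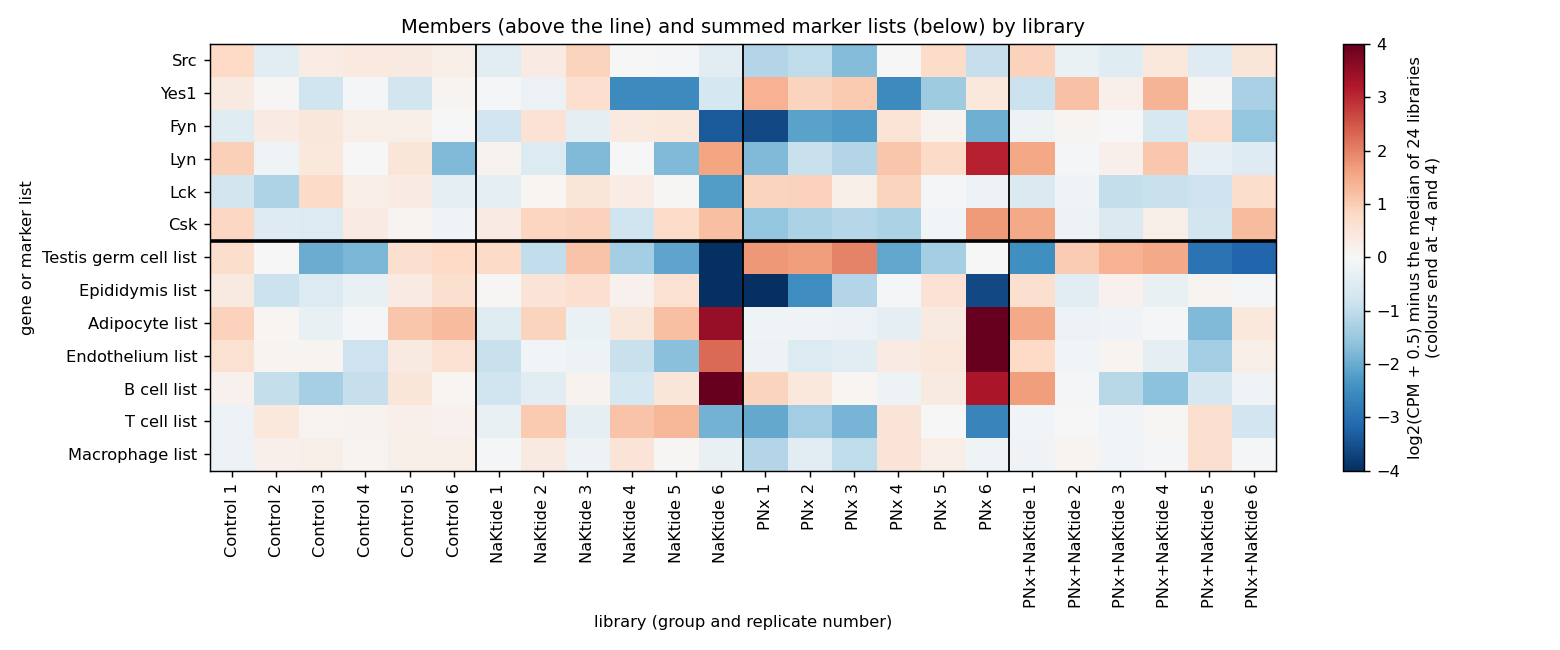
Each of 6 genes (above the line) and 7 summed marker lists (below it) in every library, as the log2 CPM relative to the median of the 24 libraries; red is above and blue below. Fyn and the T cell list, mostly Cd2, are both blue in PNx replicates 1, 2, 3 and 6. Yes1 and the germ cell list are both red in PNx replicates 1, 2 and 3. In PNx replicate 6, Lyn, the adipocyte list and the endothelium list are all red. The kidney list, also low in PNx replicates 1, 2, 3 and 6, is not drawn.

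Other settings changed how many genes passed. The edgeR test called 0 of 7 genes with DESeq2 size factors and with library size scaling, where it called 33.3% and 15.7% of all genes, and 0 of the 3 genes (Src, Fyn and Csk) that the stricter filterByExpr filter kept, where it called 17.9%. DESeq2 called 0 of 7 genes, where it called 29.7% of all genes. Its unadjusted p was under 0.05 for Yes1 (log2 fold change 1.41, adjusted p = 0.126) and Lck (1.19, adjusted p = 0.124). The voom method of limma with sample quality weights called 6 of 7 genes, where it called 63.8% of all genes. Src was -1.70 (adjusted p = 0.00122), Fyn -2.51 (adjusted p = 0.000193), Csk -1.33 (adjusted p = 0.0184), Lyn -1.44 (adjusted p = 0.0834) and Yes1 1.05 (adjusted p = 0.0855), and Fgr was the remaining call. That method gave PNx replicates 4, 5 and 6 weights of 0.243, 0.242 and 0.170, and PNx replicates 1, 2 and 3 weights of 0.930, 1.22 and 1.80. It thus leaned on the 3 libraries with the highest germ cell sums. The 6 calls, of which Fgr had 13 counts in all, came in a fit that called 63.8% of all genes. Whether the shares differ was not tested.

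NaKtide in sham-operated mice was compared with Control to ask what the peptide does without renal failure. Again 0 of 7 genes were called, where 0% of all genes were called by edgeR, and 0 of 7 had an unadjusted p under 0.05, where 3.95% of all genes did. All 7 adjusted p-values were 1. The largest fold change among the 6 genes with enough counts was that of Csk, at 0.62 ± 0.60 on the log2 scale. Csk had 2.96, 4.48 and 8.36 CPM in Control and 2.42, 8.25 and 11 in NaKtide, so 3 NaKtide libraries lay above the Control range and 1 below it. Src had 4.50, 5.98 and 11.9 CPM in NaKtide, nearly the Control range, with a log2 fold change of -0.19 and a 95% interval of -1.09 to 0.70. Fyn had 3.88, 45.8 and 66.3 CPM, and its lowest value, in NaKtide replicate 6, lay far below the other libraries of the group, whose next value was 25.7. That library also had the lowest T cell sum of the group, 12.9 CPM, a sum that rests mostly on Cd2. It had counts for 5 of the 8 T cell genes, against 2 to 5 in the rest of the group. Yes1 was at 0 in NaKtide replicates 4 and 5, the libraries with 1127363 and 679250 counts, where a count of 0 allows up to 3.63 and 5.90 CPM. The log2 fold changes of Fyn, Yes1, Lyn and Lck were -0.27, -0.27, -0.04 and -0.11. DESeq2 and voom also called 0 of 7, where they called 0.0115% and 0.00766% of all genes.

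The comparison of PNx+NaKtide with PNx asked what the peptide does after nephrectomy. Src, Fyn and Csk had higher means with NaKtide and Lck a lower mean, and 0 of 7 genes were called by edgeR, where 0% of all genes were. At an unadjusted p under 0.05 the count was 0 of 7, where 12.7% of all genes passed. Src had 4.16, 6.73 and 12.2 CPM in PNx+NaKtide against 1.51, 2.92 and 10.7 in PNx. Its means were 7.15 ± 3.21 and 4.47 ± 3.45 CPM (SD, n = 6 each), the log2 fold change was 0.73 ± 0.46 and the adjusted p was 0.448. The 6 PNx+NaKtide libraries lay above PNx replicates 1, 2, 3 and 6 for Src and overlapped replicates 4 and 5. Their epididymis sums, 1211 to 2592 CPM, also all lay above those of the 4 PNx libraries. Fyn had 14.9, 41.9 and 71.5 CPM in PNx+NaKtide, also above those 4 PNx libraries in every case, with a log2 fold change of 0.76 ± 0.59 (adjusted p = 0.503). Without PNx replicates 1, 2 and 3 the log2 fold changes were 0.13 for Src and -0.01 for Fyn.

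Lck had 0.714, 0.969 and 3.39 CPM in PNx+NaKtide, and 4 of the 6 libraries lay below the lowest PNx value of 1.51. Those 4 values rest on 1 or 2 counts each, and the lowest PNx value on 4 counts, too few to separate them. The log2 fold change of Lck was -0.99 ± 0.59 with an adjusted p of 0.441, and DESeq2 gave -1.45 with an unadjusted p of 0.0249 and no adjusted p. Csk had 2.50, 4.64 and 13.8 CPM and a log2 fold change of 0.61 ± 0.59 (adjusted p = 0.580), which was 1.72 (adjusted p = 0.230) without PNx replicate 6 and -0.05 without PNx replicates 1, 2 and 3. Lyn was at -0.75 ± 0.90 (adjusted p = 0.656) and at 0.94 (adjusted p = 0.509) without PNx replicate 6. Yes1 had 0.679, 2.68 and 6.91 CPM and a log2 fold change of -0.16 ± 0.66 (adjusted p = 0.912). Without PNx replicates 1, 2 and 3 Yes1 was at 1.17 (adjusted p = 0.511), and its direction also changed without PNx+NaKtide replicate 1 or 6. The direction for Fyn, Csk, Lyn and Yes1 thus changed with the libraries kept. DESeq2 called 0 of 7, where it called 5.80% of all genes, and voom called 6 of 7, where it called 44.0%.

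**Figure D4:**
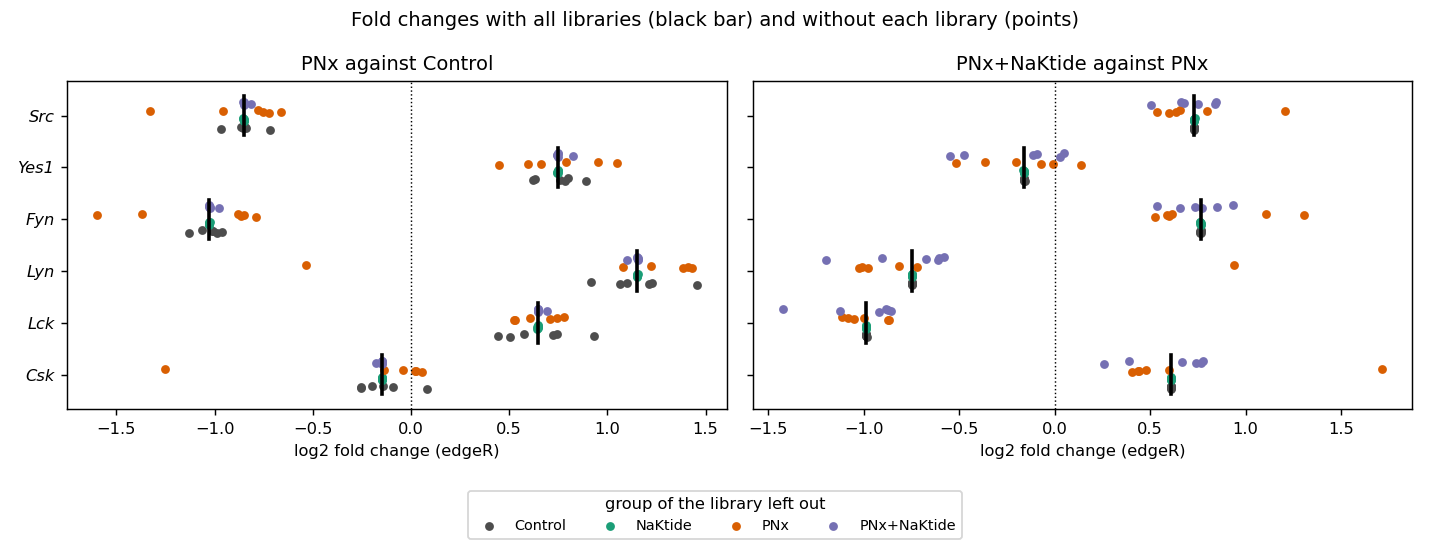
Log2 fold changes (edgeR) with all libraries (black bar) and without each of the 24 libraries in turn (points, coloured by the group of the library left out). The point far from the others for Lyn and Csk is the fit without PNx replicate 6, at -0.53 and -1.25 in PNx against Control.

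Nephrectomy was also compared under NaKtide, PNx+NaKtide against NaKtide, where the 2 groups share no mice with the first comparison. Here 0 of 7 genes were called, where 0% of all genes were, and 0 of 7 had an unadjusted p under 0.05, where 4.09% of all genes did. Src was at 0.07 ± 0.46 with a 95% interval of -0.83 to 0.97, and Fyn at 0.01 ± 0.58 with an interval of -1.13 to 1.15. Yes1 had the largest log2 fold change of the 6 genes in this comparison, 0.86 ± 0.73, with 2 PNx+NaKtide libraries above the NaKtide range. Csk and Lck were at -0.16 and -0.23 and Lyn at 0.44, and every adjusted p was 1. DESeq2 and voom called 0 of 7 too, where they called 0.00766% and 0% of all genes. The interaction term tested whether the effect of nephrectomy differed between the GFP and NaKtide viruses. It was 0.92 ± 0.64 for Src (adjusted p = 0.638) and 1.04 ± 0.83 for Fyn (adjusted p = 0.682), with adjusted p of 0.735 or more for the other genes. None of the 7 was called by edgeR or DESeq2, where 0% and 0.360% of all genes were, and at an unadjusted p under 0.05 edgeR had 0 of 7 against 9.27% of all genes, and voom called Src, Fyn and Lyn, where it called 25.5%. The low Src and Fyn values of PNx were thus not shown to differ in effect between the viruses by edgeR.

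**Figure D5:**
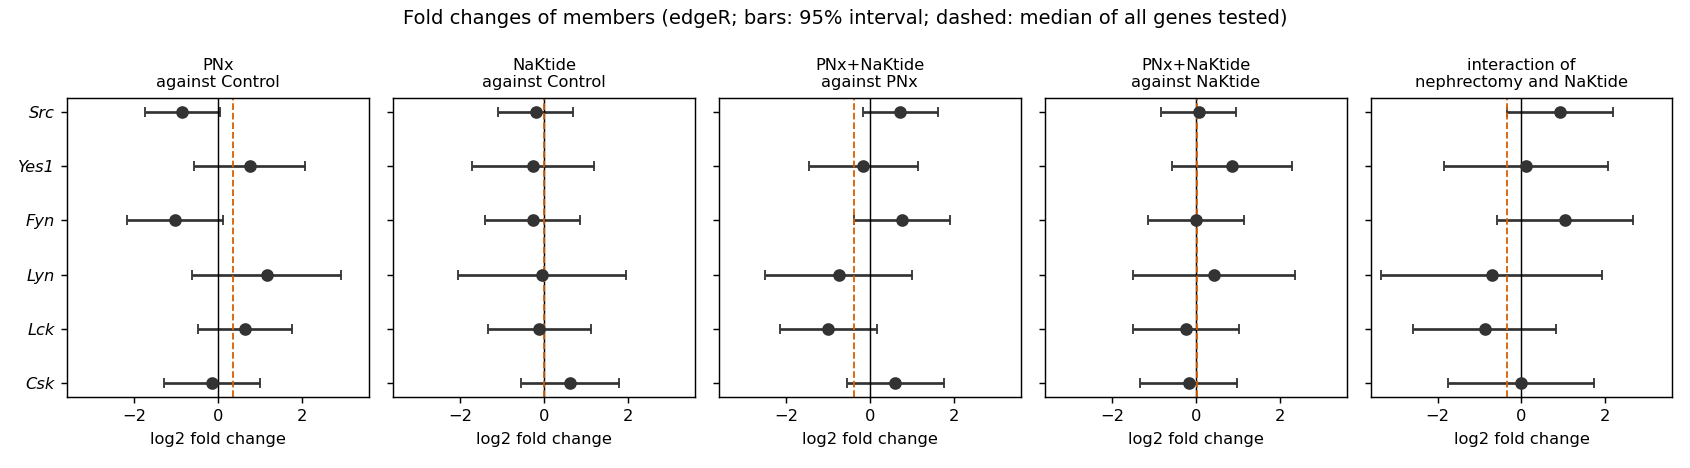
Log2 fold changes (edgeR, points) of 6 genes with bars for the 95% interval in the 5 comparisons; the dashed line is the median of all genes tested. Every bar crosses 0, and in PNx against Control the bar of Src ends at 0.04 and that of Fyn at 0.12.

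The partners of these kinases were read from 6 lists. Of their 81 genes, 74 were tested. The counts over all 74 include a list that is not described further. In PNx against Control edgeR called 0 of 74, and 19 were higher and 1 lower at an unadjusted p under 0.05, where 18.5% of all genes were higher and 6.88% lower. DESeq2 called 25 and voom 48 of the 74, where they called 29.7% and 63.8% of all genes. In PNx+NaKtide against PNx 2 were higher and 8 lower, where 4.07% and 8.60% of all genes were, and edgeR called 0 of 74. Among the other Src-type kinases, 2 of 5 tested were higher in PNx at an unadjusted p under 0.05, with a median of 1.86 on the log2 scale against 0.36 for all genes. Srms, an epithelial relative of Src, was at 3.39 ± 1.26 (adjusted p = 0.141) and Blk, a B cell kinase, at 1.86 ± 1.03 (adjusted p = 0.238). Matk, which like Csk phosphorylates the tail, was at -0.32 ± 0.39 (adjusted p = 0.593).

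Of the regulators of the tail, 4 of 13 tested were higher at an unadjusted p under 0.05 and 0 lower. Over all genes 18.5% were higher and 6.88% lower. The median of the regulators was 0.16, against 0.36 for all genes. Ptpra, which removes the phosphate of the tail, and Ptpn18, a phosphatase that binds Csk, were at 1.34 ± 0.54 (adjusted p = 0.150) and 1.37 ± 0.46 (adjusted p = 0.134). Ptpn6, the phosphatase SHP-1 of blood cells, was at -1.38 ± 0.69 (adjusted p = 0.206). All of these overlap a gene of the opposite strand. Of the substrates and adaptors, 2 of 24 were higher and 1 lower, against the same 18.5% and 6.88% of all genes. Their median was 0.34, against 0.36. Vcl, a focal adhesion protein, was at -0.78 ± 0.39, the transcription factor Stat3 at -0.27 ± 0.49 and the phospholipase Plcg1 at -0.04 ± 0.37, with adjusted p of 0.205, 0.734 and 0.960.

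Of the T cell receptor partners of Lck and Fyn, 10 were tested. In PNx 4 were higher at an unadjusted p under 0.05 and 0 lower, where 18.5% and 6.88% of all genes were. Their median was 1.14, against 0.36 for all genes. The most abundant of these partners, Cd247, Lcp2 and Unc119, were at -0.34, 0.75 and 0.51 and were not among the 4 that passed. Of the myeloid and B cell partners of Lyn and Fgr, 2 of 15 tested were higher and 0 lower, against the same shares of all genes. Their median was 0.32, also against 0.36. Inpp5d, Syk and Fcgr2b, the most abundant, were at -0.74, -1.04 and -0.66. Adjusted p-values of these 6 immune genes ranged from 0.360 to 0.588.

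The genes whose level was most like that of each kinase over the 24 libraries were found among 13348 protein-coding genes with a mean of at least 1 CPM, by Spearman's rho. These values are descriptive, since the libraries share the compositions described above. Fyn was closest to Selenoo (0.970), LTO1 (0.959) and Gnal (0.958), which all overlap a gene of the opposite strand. Csk was closest to Cttn (0.920), an actin-binding Src substrate, and to Tcf25 (0.907) and Clstn1 (0.900). Yes1 was closest to Cpsf2 (0.911), Slc43a2 (0.908) and Ddx21 (0.901), and Src to Prkcsh (0.897), Bex2 (0.875) and Krt19 (0.857). Lyn was closest to Syngr2 (0.810), Mfng (0.797) and Cd151 (0.789). The likeness was weaker for Lck, with S100b (0.728), Rgs19 (0.654) and Spag6 (0.633). Fgr, with its 13 counts, gave E2f6 (0.815), Tshz2 (0.784) and Ncapd3 (0.754).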

How the data were processed

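Adipose RNA of 24 mice was measured by RNA-seq, 6 mice in each of 4 groups, with groups and replicate numbers taken from the sample labels, which named no batch. Libraries were made with a stranded mRNA kit and read as pairs of 50 bp. The labels and the study's methods name Trimmomatic 0.38, HISAT2 2.1.0 with GRCm38 and, for counting, GenomicAlignments. Neither the strand setting of the counting nor the annotation release was stated in the sources read. Unnormalized counts per gene, as the authors deposited them, entered every test. The deposited FPKM, computed by the authors, ordered genes by level, and the deposited normalized values were not used. GENCODE gene models for GRCm38 gave names and exons and matched 99.9% of the 54232 gene IDs.

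Genes with more than 10 counts over all libraries (26116) were fitted together in R 4.3.3 with edgeR 4.0.16 (TMM, robust quasi-likelihood F-test, 4 group means) and called at a BH-adjusted p under 0.1 over all genes tested. The dispersion shared by all genes corresponded to a biological coefficient of variation of 71.4%. Intervals of fold changes are 95% intervals from the SE. A count of 0 was taken to allow 3 counts, which covers counting error only. The fits were also run on simulated counts, where changed genes were drawn from well-counted ones and libraries did not differ in tissue content. That run therefore does not cover genes with few counts, such as Yes1, Lyn, Lck and Fgr, or libraries that stand apart. Alternatives were other scalings and filters, DESeq2 1.42.0, limma 3.58.1 (voom with sample weights), a replicate block, only the compared groups, and leaving out libraries. No library pair of a group differed by as little as sampling noise.

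The 7 genes, the gene lists and the marker lists were chosen with earlier results of these data known. Named in the text are the 7 genes, Adipoq, every gene that overlaps one of the 7 on the opposite strand, the 3 genes of highest mean CPM in each list and up to 4 called ones, of which there were none, and the 3 genes most like each of the 7. Of the genes so chosen, some, with 1 of the 6 lists, are not reported here. The marker genes Cd2, Cd3d, Csf1r, Nphs1, S100a8, Cxcr2 and Retnlg were named after their values were seen.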

Additional observations from a re-analysis of the deposited data

Results flagged for a closer look

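Within the groups of 6 libraries, 5 of 28 sets of values of a gene in a group had a highest library far from the nearest other. The rule used flags about 1 in 20 sets of independent, normally spread values. Many values here rest on few counts and the sets share libraries, so that rate does not carry over, and chance was not tested. Lyn stood at 14.0 CPM in PNx replicate 6, where the next library of the group was at 3.14, and at 4.53 CPM in NaKtide replicate 6, where the next was at 1.35. Csk stood at 15.9 CPM in PNx replicate 6, where the next was at 4.16. Fgr stood at 1.29 CPM in NaKtide replicate 6, which is 2 counts. Lck stood at 3.39 CPM in PNx+NaKtide replicate 6, which is 5 counts, with the next library at 1.67. In 4 of the 5 cases the library was replicate 6 of PNx or NaKtide, the pair with the highest sums over the adipocyte list. The part of that composition in these values was not tested.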

How the results depend on the processing

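Of 279 fold changes of single genes under alternatives other than leaving out 1 library, 235 kept their direction and their side of the threshold, 11 passed the threshold with the same sign and 33 changed sign, 3 of which (Lyn by voom) also passed. No gene was called in NaKtide against Control or in PNx+NaKtide against NaKtide under any alternative run. The voom method called 6 genes in PNx against Control, 6 in PNx+NaKtide against PNx and 3 in the interaction, and leaving out replicate 6 of PNx and NaKtide, a setting added after the data were seen, gave 1 call, Csk, in PNx against Control. In PNx against Control, list genes called were 28 of 74 with DESeq2 size factors (33.3% of all genes), 14 with library size scaling (15.7%), 6 of the 36 left by the filterByExpr filter (17.9%), 25 of 74 by DESeq2 (29.7%), 48 by voom (63.8%) and 18 of 72 without replicate 6 of PNx and NaKtide (21.8%). In PNx+NaKtide against PNx they were 6 by DESeq2 (5.80%) and 35 by voom (44.0%), and in the interaction 18 by voom (25.5%). By the mean over libraries, Src was in place 3, Csk in place 2, Yes1 in place 6 and Lyn in place 5 of the order of levels.

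The following log2 fold changes had the opposite sign to the value with all libraries and TMM. In PNx against Control, Csk was 0.080 with DESeq2 size factors, 0.20 with library size scaling, 0.0059 under filterByExpr, 0.093 by DESeq2 and 0.50 without PNx replicates 1, 2 and 3. There Yes1 was -0.63 without PNx replicates 1, 2 and 3, and Lyn was -1.44 by voom and -0.56 without replicate 6 of PNx and NaKtide. In NaKtide against Control, Lyn was 0.086 with DESeq2 size factors and 0.086 by DESeq2, and Lck was 0.24 by voom and 0.17 without the libraries numbered 6. In PNx+NaKtide against PNx, Lyn was 1.90 by voom and 0.97 without the libraries numbered 6, and without PNx replicates 1, 2 and 3 Yes1 was 1.17, Fyn -0.014 and Csk -0.050. In PNx+NaKtide against NaKtide, Src was -0.095 by voom and -0.026 without the libraries numbered 6, and Fyn -0.040 and -0.24. In the interaction, Yes1 was -0.47 with DESeq2 size factors, -0.33 with library size scaling, -0.48 by DESeq2, -0.13 by voom and -0.056 without the libraries numbered 6. There Lyn was 2.37 by voom and 1.90 without the libraries numbered 6, and Csk 0.92 and 1.25. The cause of these shifts was not tested. Of the values in these sentences, only those of Lyn by voom passed the threshold.

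Groups shared replicate numbers, and the deviations of same-numbered libraries from their group means correlated unevenly, from -0.59 to 0.71 over 36 library pairs with a median of 0.12. In 19 pairs the correlation was over 0.1, and in 12 it was higher than with any other library of the second group. It was over 0.1 for 5 of 6 numbers between NaKtide and PNx and 4 of 6 between PNx and PNx+NaKtide, but for all 6 between no 2 groups, so the numbers were not taken to pair the mice. With the number as a replicate block 0 of 7 genes were called in every comparison, Yes1 was 0.018 in PNx+NaKtide against PNx, and Lyn 0.60 and Csk 0.23 in the interaction.

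Leaving out each library in turn gave 0 to 1 called gene in PNx against Control (Fyn without PNx replicate 4 and Src without PNx replicate 5) and 0 in the other comparisons. Fold changes that crossed 0 ranged as follows. In PNx against Control, Lyn ran from -0.53 to 1.46 and Csk from -1.25 to 0.082. In NaKtide against Control, Lyn ran from -0.95 to 0.26 and Lck from -0.33 to 0.17. In PNx+NaKtide against PNx, Yes1 ran from -0.55 to 0.14 and Lyn from -1.20 to 0.94. In PNx+NaKtide against NaKtide, Src ran from -0.15 to 0.32, Fyn from -0.23 to 0.21, Lyn from -0.0022 to 1.35 and Csk from -0.51 to 0.0029. In the interaction, Yes1 ran from -0.23 to 0.55, Lyn from -1.16 to 0.97 and Csk from -0.37 to 1.09.

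Depth limits these genes, since Lyn had 93 counts in all, Lck 92 and Fgr 13, and single libraries decided the sign for Lyn. The filterByExpr filter left Yes1, Lyn, Lck and Fgr untested, a fit of the compared groups only could not be made for the interaction, and no fold change was compared for Fgr. The p-values measure the spread between libraries that the series description gives as separate mice.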
